A study of Rattus norvegicus with 151 samples.

Results

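The comparison described here was between the livers of rats given PPH at 1000 mg/kg and the livers of rats given the corn oil vehicle of the same set. The arrays were assigned by their labels, as the 4 liver arrays of the 1000 mg/kg group and the 5 liver arrays of the vehicle group, which were 9 of the 151 arrays of the series. PPH is propylene glycol phenyl ether, one of the chemicals released in a spill into drinking water in West Virginia. The series measured messenger RNA in liver and kidney of rats given PPH, MCHM or crude MCHM, to find which transcripts each chemical changed and from which dose. The rats of both groups were male Harlan Sprague-Dawley animals of 6 to 8 weeks. All were dosed by oral gavage once a day for 5 days, and they differed by label in the PPH dose alone. The labels give each array a number of its own within its tissue and dose, taken here as the number of the rat, and they give no body weight, food intake or histology for either group. In order of that number the 1000 mg/kg liver arrays are called A, B, C and D and the vehicle arrays V, W, X, Y and Z, and values of single arrays are given in this order unless sorted. Kidney arrays with the same numbers have the same letters, and E is a 1000 mg/kg kidney array whose number has no liver array. Arrays R and S are from the 500 mg/kg group. The other PPH groups, at 1, 10, 100 and 500 mg/kg with 4 liver arrays each, entered the same fit and are described where they bear on this dose.

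The liver clears foreign chemicals in steps: oxidising enzymes such as cytochromes P450 add a reactive group, transferases attach glutathione, glucuronic acid, sulfate or an amino acid, and transporters export the product. Sensors switch these genes on, among them Nrf2, which answers reactive and oxidising compounds through antioxidant response elements, and the nuclear receptors CAR and PXR, which answer drugs. The liver also makes most of the body's cholesterol, and in young rats it still holds some dividing cells.

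Values are RMA values on the log2 scale, so a difference of 1 is a doubling, and changes are the PPH 1000 mg/kg mean minus the vehicle mean. The 9 arrays had medians between 5.26 and 5.31, and each correlated with the other PPH liver arrays at a median r between 0.988 and 0.993. No array pair was identical. The label of liver was borne out by its markers: 11 hepatocyte genes averaged between 13.24 and 13.34 on the PPH 1000 mg/kg arrays and between 13.26 and 13.49 on the vehicle arrays, and albumin (Alb) stood at 14.83 and 14.82. As a sign of RNA integrity, the 5′ probe set of beta-actin minus its 3′ probe set was between -1.20 and -1.07 at 1000 mg/kg and between -1.27 and -1.11 with vehicle. Because whole liver was measured, fewer cells of a type and less RNA per cell cannot be told apart. The labels do not say that arrays of a group came from separate cages or days, so p-values measure the spread between these arrays only.

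Liver at 1000 mg/kg had more transcripts raised than lowered. Of 11342 genes tested with limma over the 25 PPH liver arrays, 199 (1.75%) passed an adjusted p of 0.05 (Benjamini-Hochberg), 61 of them lower (0.538%) and the others higher (1.22%). The changes were mostly small: 46 rises and 17 falls reached 1.5-fold, and 14 rises and 8 falls reached 2-fold. The median change over all genes was 0.03, and 57.9% of genes had a positive change. In 184 of the 199 genes the groups did not overlap on any array, which follows in large part from calling genes on these same arrays. Among all genes tested the groups did not overlap in 685 (6.04%). After a further quantile normalization 98 genes were higher and 83 lower, which moved the balance of rises and falls but left the number near the same. Array C of the 1000 mg/kg group carried much of the count, which was 65 without it, and the count was 121 without array D of that group and 118 without array V of the vehicle group. A fit on the liver arrays of all 3 chemicals called 348 genes, and a fit on the 9 arrays alone called 61. That smaller fit called 3 glutathione transferases, 4 Nrf2 targets, 2 cholesterol synthesis genes, 1 growth hormone axis gene and 8 mitosis genes. The fit described here called 7, 8, 13, 4 and 3 of them. In 15 of 33 mitosis genes tested, the 1000 mg/kg mean lay under the filter on low values and the vehicle mean above it. Such genes can enter the smaller fit through the vehicle arrays alone, so the 8 calls describe the list and do not test a fall.

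**Figure D1:**
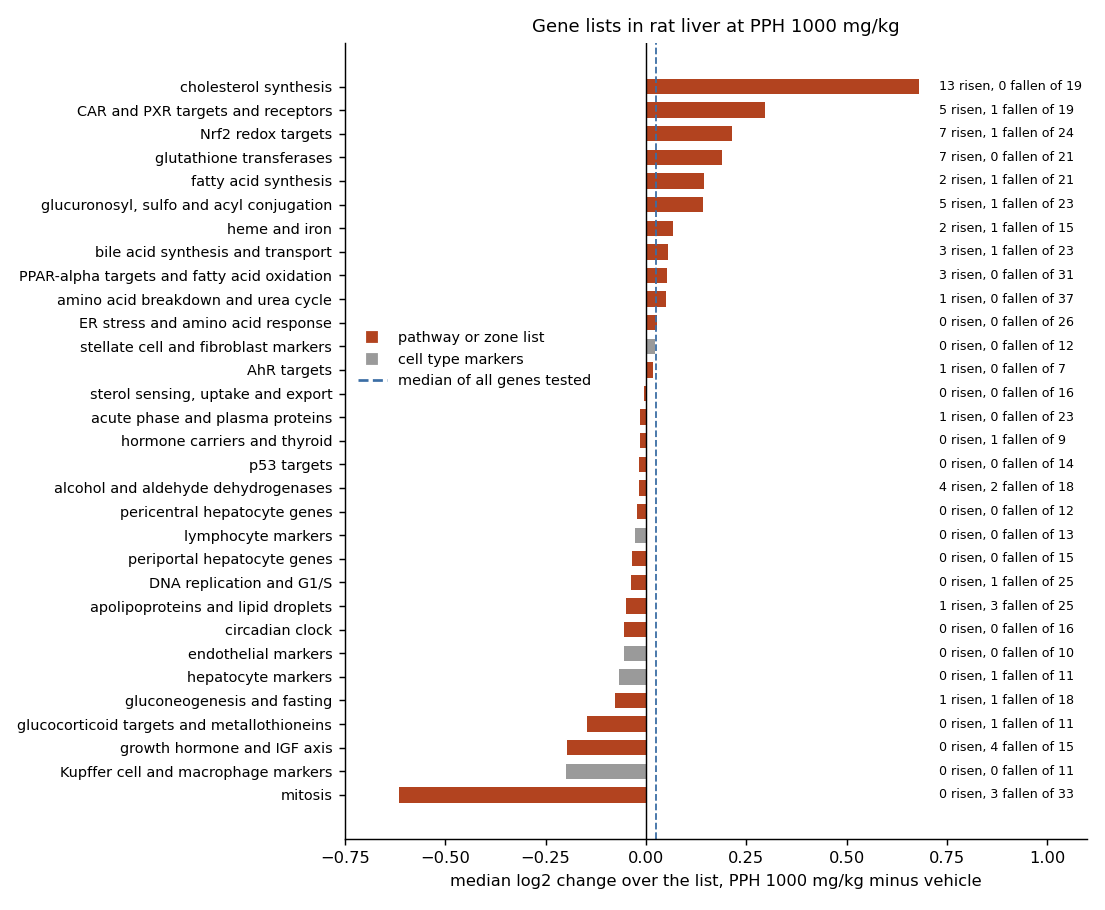
Median log2 change (PPH 1000 mg/kg minus vehicle, horizontal axis) over each gene list with at least 5 genes tested, with the number of members that passed an adjusted p of 0.05 in each direction at the right. Cholesterol synthesis stands highest with a median of 0.68 and 13 of 19 genes risen, mitosis stands lowest with a median of -0.62 and 3 of 33 fallen, and the dashed line marks the median of all genes, 0.03.

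Glutathione transferases rose as a family in part: 7 of the 21 genes tested (33.3%) were higher, against 1.22% of all genes, and none was lower. The median change over the 21 was 0.19, so the family held 2 large rises and many small differences. These enzymes attach glutathione to reactive compounds. Gsta3, an alpha-class enzyme, had 9.23, 9.54, 9.68 and 9.24 on the PPH 1000 mg/kg arrays, against 5.50, 7.35, 6.37, 7.12 and 7.53 on the vehicle arrays. Every treated array lay above every vehicle array, while the vehicle arrays themselves spread over 2 log2 units. The change was 2.65 ± 0.32 (SE), or 6.27-fold, with an adjusted p of 8.74e-05, the largest rise among called genes. Gstt3, a theta-class enzyme, had 10.69, 11.01, 11.07 and 10.99 at 1000 mg/kg, against 8.94, 9.30, 9.23, 8.83 and 8.99 with vehicle. Here both groups were tight, and the change of 1.88 ± 0.15 (SE), or 3.69-fold, had the smallest adjusted p of the comparison, 2.52e-07. The vehicle arrays also lay below every array of the lower doses, the lowest of which had 9.49 at 100 mg/kg. Arrays at 1 mg/kg already had 9.52 to 10.10, so part of the change separates vehicle from every dose. What sets the vehicle arrays apart was not tested.

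The other 5 glutathione transferases that rose did so by less than 1.5-fold. Gstt1 rose by 0.53 (adjusted p 0.00452), the pi-class Gstp1 by 0.49 (0.00326) and the membrane-bound Mgst2 by 0.46 (0.00976). Gsto1 rose by 0.26 and Gsta1, another alpha-class enzyme, by 0.21. Gstp1 had 9.23, 9.45, 9.76 and 9.33 at 1000 mg/kg, against 8.93, 8.88, 9.06, 8.87 and 9.03 with vehicle, without overlap. The mu-class genes did not pass, with Gstm1 at 0.19 and Gstm2 at 0.46. Alpha-class genes resemble one another in sequence, and a probe set can read a close relative, so the level of a single alpha-class gene is uncertain. Leaving out 1 array gave 5 or 6 risen members, and Gsta1 passed in none of the 9 fits that did so.

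Promoters of 3 risen genes are shown because each holds the core of an antioxidant response element, TGACNNNGC, searched on both strands of a window of 300 bases around the transcription start, most of it before the start (RefSeq, GRCr8). Capitals mark the core, which began 17 bases before the start in Gsta3, 61 before it in Gstp1 and 167 before it in Me1.
Gsta3, chr9:31154739-31155038, plus strand: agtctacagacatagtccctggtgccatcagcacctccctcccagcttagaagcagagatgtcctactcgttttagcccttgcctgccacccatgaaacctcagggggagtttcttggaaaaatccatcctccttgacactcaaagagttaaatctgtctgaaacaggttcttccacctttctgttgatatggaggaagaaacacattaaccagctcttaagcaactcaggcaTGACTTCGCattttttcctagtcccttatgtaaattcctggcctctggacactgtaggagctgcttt
Gstp1, chr1:210769656-210769955, minus strand: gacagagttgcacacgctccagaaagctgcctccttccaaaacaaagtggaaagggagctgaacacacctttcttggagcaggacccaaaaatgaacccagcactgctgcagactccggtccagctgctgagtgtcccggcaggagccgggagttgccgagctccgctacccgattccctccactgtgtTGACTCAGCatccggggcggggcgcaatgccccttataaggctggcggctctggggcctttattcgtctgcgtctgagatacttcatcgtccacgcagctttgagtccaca
Me1, chr8:96540195-96540494, minus strand: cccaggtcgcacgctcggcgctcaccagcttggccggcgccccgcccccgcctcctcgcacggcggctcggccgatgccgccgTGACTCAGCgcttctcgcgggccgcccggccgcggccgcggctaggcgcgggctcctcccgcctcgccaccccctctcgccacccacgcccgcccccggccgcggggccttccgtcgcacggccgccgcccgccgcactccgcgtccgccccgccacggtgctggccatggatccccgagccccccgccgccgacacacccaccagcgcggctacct
In Gstp1 and Me1 the core read TGACTCAGC, and in Gsta3 it read TGACTTCGC. The core was held by 6 (35.3%) of 17 glutathione transferases with a promoter in RefSeq and by 4 (18.2%) of 22 Nrf2 targets, against 12.1% of all 33469 promoters and 14.8% of the 9473 promoters of genes tested. Among called genes with a promoter, 3 of 5 glutathione transferases and 2 of 6 Nrf2 targets held the core. Gstm5, Gstm7, Gstz1, Gclm and Nfe2l2 held it without passing the test. Whether the core goes with a rise was not tested. A match describes the letters in this window and is not a measured binding site.

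Nrf2 targets for redox balance rose in several places, with 7 of 24 genes higher (against 1.22% of all genes), 1 lower (against 0.538%) and a median of 0.21. NAD(P)H quinone reductase (Nqo1), which reduces quinones without forming radicals, had 8.71, 8.55, 8.78 and 8.45 at 1000 mg/kg, against 6.85, 7.52, 7.27, 7.32 and 7.51 with vehicle. Its change of 1.33 ± 0.13 (SE) had an adjusted p of 2.72e-06, and the lowest treated array stood well above the highest vehicle array. As for Gstt3, the vehicle arrays also lay below every array of the lower doses, the lowest of which had 7.56 at 100 mg/kg. Akr7a3, the aflatoxin aldehyde reductase, had 11.99, 11.29, 11.88 and 11.84 at 1000 mg/kg, against 10.37, 10.84, 10.36, 10.21 and 10.65 with vehicle. It rose by 1.26 ± 0.20 (SE, adjusted p 0.00175), again without overlap.

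Enzymes that supply NADPH and keep glutathione reduced were among the rises. Malic enzyme (Me1), which makes NADPH, rose by 0.80 (adjusted p 0.0107), and glutathione reductase (Gsr) by 0.72 (0.00326). Transketolase (Tkt) of the pentose phosphate pathway rose by 0.35 (0.0489) and the epoxide hydrolase Ephx1 by 0.33 (0.0243). UDP-glucose dehydrogenase (Ugdh), which makes the donor for glucuronidation, rose by 0.38 (0.0233).

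The list did not move as one. Heme oxygenase (Hmox1), which breaks down heme, was the 1 member that fell: it had 7.78, 7.81, 7.90 and 7.83 at 1000 mg/kg, against 8.12, 8.14, 8.78, 8.15 and 8.23 with vehicle, a change of -0.45 (adjusted p 0.0282). Neither subunit of the enzyme that starts glutathione synthesis passed, with Gclc at 0.16 and Gclm at 0.25, nor did the cystine carrier Slc7a11 at 0.13 or Srxn1 at 0.41. Nfe2l2, which encodes Nrf2 itself, stood at -0.17 (adjusted p 0.702). The 8 calls became 4 without array C or array D of the 1000 mg/kg group, and 5 without array A of that group or array V of the vehicle group.

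**Figure D2:**
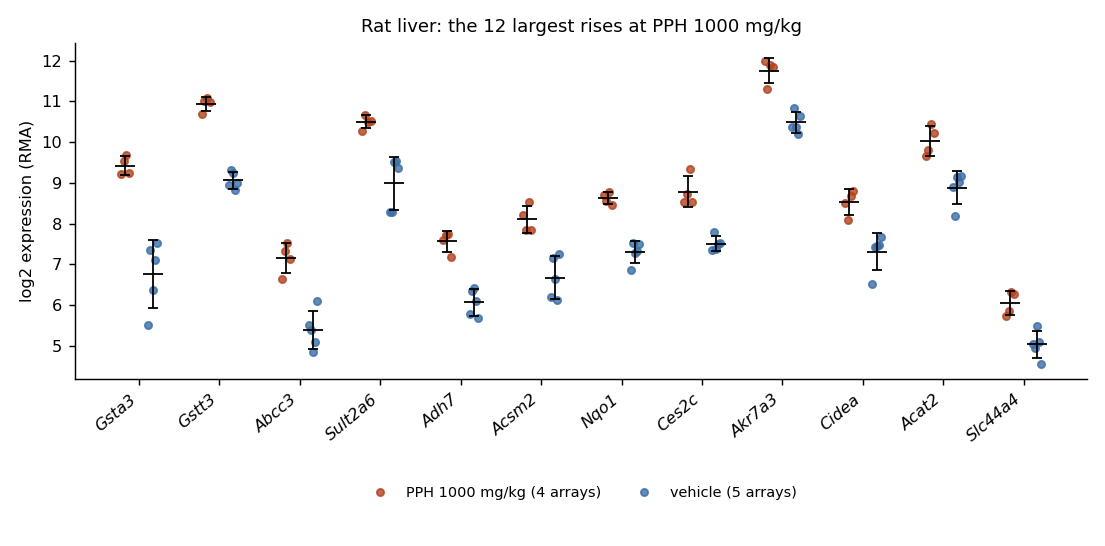
Log2 expression (vertical axis) of the 12 genes with the largest rises among called genes, for the 4 PPH 1000 mg/kg arrays (left of each pair) and the 5 vehicle arrays (right), with the mean and SD as black bars. In each of the 12 genes every treated array lies above every vehicle array, with the widest gap between means for Gsta3, 9.42 against 6.77.

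Targets of CAR and PXR rose in part, with 5 of 19 genes higher (against 1.22% of all genes), 1 lower (against 0.538%) and a median of 0.30. The exporter Abcc3, which moves glucuronides and bile acids from hepatocytes into blood, had 6.65, 7.32, 7.53 and 7.13 at 1000 mg/kg, against 5.51, 5.39, 4.86, 5.09 and 6.09 with vehicle. It rose by 1.77 ± 0.19 (SE), or 3.41-fold, with an adjusted p of 8.37e-06 and no overlap. The carboxylesterase Ces2c had 8.54, 8.73, 9.34 and 8.53 at 1000 mg/kg, against 7.34, 7.80, 7.37, 7.50 and 7.53 with vehicle, a rise of 1.28 (adjusted p 0.000205). Among cytochromes P450, Cyp3a23-3a1, a main drug-oxidising enzyme, rose by 0.84 (0.00181) and Cyp3a18 by 0.48 (0.0105). Retinal dehydrogenase (Aldh1a1) rose by 0.58 (0.0211).

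The canalicular exporter Abcc2, which sends conjugates into bile, went the other way from Abcc3: it had 9.87, 9.99, 9.99 and 9.96 at 1000 mg/kg, against 10.14, 10.27, 10.30, 10.67 and 10.41 with vehicle (-0.40, adjusted p 0.0451). The receptors did not pass, Nr1i2 (PXR) at 0.00 and Nr1i3 (CAR) at 0.64 with an adjusted p of 0.366. Cyp3a2 at 0.03 and Cyp2c6v1 at 0.14 also did not pass, and Cyp2b1 and Cyp2b2 were not analysed here. Without array C of the 1000 mg/kg group 3 members passed. Of 7 targets of the aryl hydrocarbon receptor, Nqo1 alone passed (14.3%, against 1.75% of all genes), with a list median of 0.02. The receptor's marker genes Cyp1a1 (0.27) and Cyp1a2 (0.02) did not pass.

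Enzymes of conjugation other than glutathione transfer rose in 5 of 23 cases and fell in 1 (26.1% called, against 1.75% of all genes), with a median of 0.14. Acsm2, a medium-chain acyl-CoA synthetase that readies carboxylic acids for coupling to glycine, had 8.20, 7.84, 8.53 and 7.83 at 1000 mg/kg, against 6.19, 7.16, 6.64, 6.14 and 7.25 with vehicle, and rose by 1.43 (adjusted p 0.0015). Sult2a6, a hydroxysteroid sulfotransferase, had 10.28, 10.66, 10.50 and 10.53 at 1000 mg/kg, against 8.29, 8.29, 9.51, 9.52 and 9.36 with vehicle. It rose by 1.50 (0.0427), but its vehicle arrays fell into a low pair and a higher trio. The glucuronosyltransferases Ugt2b7 and Ugt2b1 rose by 0.67 and 0.42, with overlap between the groups for Ugt2b7. Papss2, which makes the sulfate donor, fell by 0.36 (0.0489), also with overlap. Single arrays decided most of these calls: 1 member passed without array C, array D or vehicle array V, 2 passed without array A, and 3 passed without array B, vehicle array W or vehicle array X.

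Alcohol and aldehyde dehydrogenases split in direction, with 4 of 18 risen, 2 fallen (33.3% called, against 1.75% of all genes) and a median of -0.02. Adh7, an alcohol dehydrogenase that acts on retinol, had 7.61, 7.71, 7.75 and 7.18 at 1000 mg/kg, against 5.77, 6.35, 6.43, 6.10 and 5.68 with vehicle, and rose by 1.50 (adjusted p 0.00356). The main liver alcohol dehydrogenase Adh1c rose by 0.62 (0.00976), and Aldh1l1, which oxidises formyl-tetrahydrofolate in the cytosol, by 0.61 (0.00181). Mitochondrial Aldh1b1 had 6.99, 6.77, 6.51 and 7.04 at 1000 mg/kg, against 8.46, 8.05, 8.65, 7.59 and 7.89 with vehicle, a change of -1.30 (0.0256) without overlap. Aldh1l2, the mitochondrial counterpart of Aldh1l1, fell by 0.42 (0.0254). Without array C, or without vehicle array V, 3 members of the list passed.

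Cholesterol synthesis genes were higher at most steps of the pathway. All 19 genes tested had a positive change, 13 of them passed (68.4%, against 1.22% of all genes), none fell, and the median was 0.68. The groups did not overlap in 15 of the 19, against 4.2% of all genes tested in that direction. Acat2, the acetoacetyl-CoA thiolase of the first step, had 9.66, 9.81, 10.44 and 10.21 at 1000 mg/kg, against 8.89, 8.19, 9.14, 9.03 and 9.17 with vehicle, and rose by 1.14 ± 0.21 (SE, adjusted p 0.0061). Mevalonate kinase (Mvk) rose by 0.62 (0.00733), and the isomerase Idi1, with 11.71, 11.65, 12.17 and 11.67 at 1000 mg/kg, against 11.04, 10.29, 10.91, 10.94 and 11.32 with vehicle, by 0.90 (0.0154). Squalene synthase (Fdft1), the first enzyme committed to sterols, had 10.50, 10.78, 10.93 and 10.83 at 1000 mg/kg, against 10.17, 9.84, 10.12, 9.99 and 10.26 with vehicle, and rose by 0.68 ± 0.11 (SE, 0.0015).

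Late steps of the pathway rose as well. The sterol methyl oxidase Msmo1 rose by 0.91 (adjusted p 0.012), the 7-dehydrocholesterol reductase Dhcr7, which makes cholesterol itself, by 0.80 (0.0124), the sterol reductase Tm7sf2 by 0.62 (0.0107) and the isomerase Ebp by 0.54 (0.00976). Chosen after their values were seen, 2 further risen genes of sterol handling were Erg28 (0.66, adjusted p 0.0024), a tether of sterol enzymes, and Tmem97 (0.59, 0.00301), the sigma-2 receptor. The 6 members that did not pass were Lss (0.75, adjusted p 0.053), Fdps (0.46), Sc5d (0.33), Ggps1 (0.32), Nsdhl (0.18) and Lbr (0.06). The number of calls rested on 3 arrays: 3 members passed without array C, which was the highest treated array for Mvk and Idi1, and 8 passed without array D or without vehicle array W, the lowest vehicle array for Acat2 and Dhcr7.

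**Figure D3:**
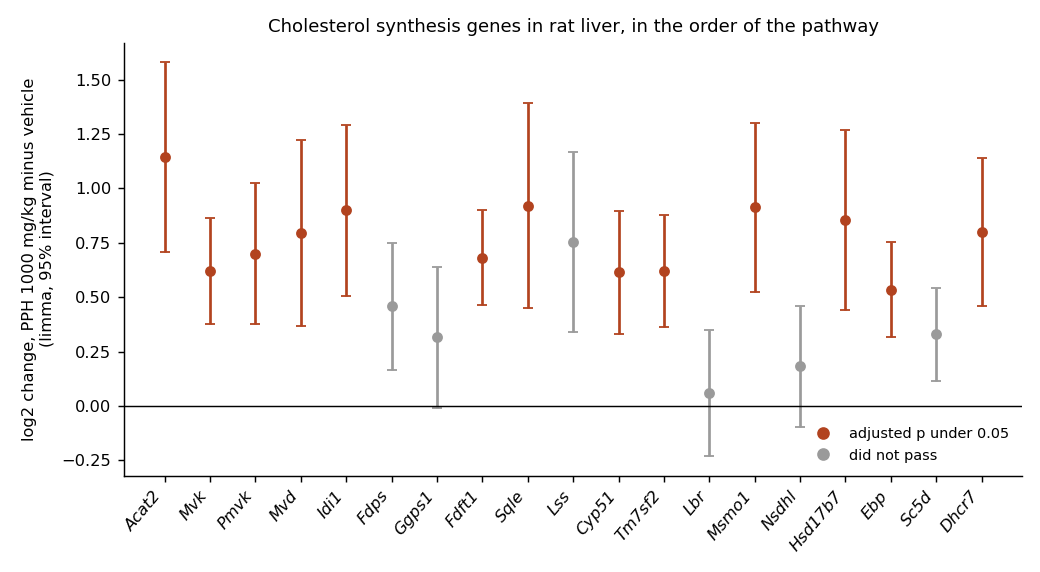
Log2 change (PPH 1000 mg/kg minus vehicle, vertical axis, with the 95% interval from limma) of 19 cholesterol synthesis genes, ordered from the first enzyme at the left to the last at the right. Every point lies above 0, from 0.06 for Lbr to 1.14 for Acat2, and the 13 coloured points passed an adjusted p of 0.05.

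Of 16 genes that sense, take up or export sterols 0 passed with limma, against 1.75% of all genes, and the median was -0.01. Srebf2, which encodes the factor that switches on cholesterol synthesis, stood at 8.10 ± 0.15 at 1000 mg/kg and 7.76 ± 0.15 with vehicle (SD, n = 4 and n = 5), a difference of 0.34 with an adjusted p of 0.0796. Insig1 stood at 0.76 (0.294) and the exporter Abca1 at -0.52 (0.295). None of the 16 cholesterol synthesis promoters found in RefSeq held the sterol response element TCACNCCAC on either strand, which 1.12% of all promoters held. With so rare a match, none among 16 promoters says little about these genes. Other forms of the element were not searched.

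In fatty acid synthesis 2 of 21 genes rose and 1 fell (14.3% called, against 1.75% of all genes), with a median of 0.14. The acetyl-CoA synthetase Acss2 rose by 0.70 (adjusted p 0.0282), beside Me1, and the elongase Elovl5 fell by 0.34 (0.00883), with 12.20 ± 0.06 at 1000 mg/kg and 12.54 ± 0.06 with vehicle (SD, n = 4 and n = 5). Citrate lyase (Acly, 0.24) and fatty acid synthase (Fasn, 0.59) did not pass, and their arrays overlapped. Of 31 genes of fatty acid oxidation and of PPAR-alpha, 3 rose (9.68%, against 1.22% of all genes) with a median of 0.05: the peroxisomal dienoyl-CoA reductase Decr2 (0.48, 0.0024), the fatty acid carrier Cd36 (0.65, 0.0295) and the isomerase Eci1 (0.50, 0.0385). Cyp4a1, a classical PPAR-alpha target, stood at 0.44 (0.0917), and Ppara at -0.16. Without array C, vehicle array V or vehicle array Y, 1 member passed.

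Lipoprotein and lipid droplet genes gave 1 rise and 3 falls among 25 (16% called, against 1.75% of all genes), with a median of -0.05. Apolipoprotein A-IV (Apoa4) had 10.96, 9.86, 9.79 and 10.88 at 1000 mg/kg, against 11.55, 11.23, 11.60, 11.42 and 11.32 with vehicle, a change of -1.05 (adjusted p 0.0039). The treated arrays formed a lower and a higher pair, both under every vehicle array. Apoa1, the main protein of high-density lipoprotein, and hepatic lipase (Lipc) fell by 0.28 and 0.27 (0.0417 for each). The droplet protein Cidea had 8.51, 8.09, 8.69 and 8.81 at 1000 mg/kg, against 6.52, 7.43, 7.45, 7.48 and 7.67 with vehicle, and rose by 1.21 (0.0315). Cidea is also 1 of 6 fat cell markers listed, whose mean lay between 5.47 and 6.00 at 1000 mg/kg and between 5.22 and 5.62 with vehicle. Of these Adipoq, Plin1 and Lep did not pass the filter on low values, Fabp4 stood at 0.28 without passing the test, and their part in the result was not tested. Of these 4 calls 1 was left without array A, array D or vehicle array V, and 2 were left without array B, array C or vehicle arrays W, X or Y, each in turn.

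Bile acid genes gave 3 rises and 1 fall among 23 (17.4% called, against 1.75% of all genes), with a median of 0.05. Beside Abcc3 and Abcc2, the bile acid CoA ligase Slc27a5 rose by 0.42 (adjusted p 0.0139) and the sterol hydroxylase Cyp27a1 by 0.34 (0.0448, with overlap). Cyp7a1, the rate-limiting enzyme, stood at 10.88 ± 0.49 at 1000 mg/kg and 10.70 ± 0.90 with vehicle (SD, n = 4 and n = 5) and did not pass. With array C left out 1 of these passed, and with array A, vehicle array W or vehicle array X left out 2 passed.

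The growth hormone and IGF axis held 4 falls (26.7%, against 0.538% of all genes) and no rise among 15 genes, with a median of -0.20. Igf1, the growth factor that liver releases under growth hormone, had 12.97, 12.97, 12.93 and 12.97 at 1000 mg/kg, against 13.23, 13.21, 13.24, 13.32 and 13.18 with vehicle. The drop was small, -0.28 ± 0.05 (SE, adjusted p 0.00799), but no array overlapped. Its carriers Igfbp3, with 9.46, 9.30, 9.48 and 9.14 at 1000 mg/kg, against 9.84, 9.91, 10.14, 9.93 and 10.17 with vehicle, and Igfals fell by 0.66 (0.00883) and 0.54 (0.0119). The growth hormone receptor (Ghr) fell by 0.42 (0.0107). The other probe sets of Igf1 and Igfbp3 changed in the same direction. Igfbp1, a carrier raised in fasting, stood at 1.05 with an adjusted p of 0.14, and the male-specific P450 Cyp2c11, which growth hormone pulses control, stood at -0.31 (0.174). Corticosteroid-binding globulin (Serpina6) had 11.89, 11.99, 11.34 and 11.75 at 1000 mg/kg, against 12.41, 12.42, 12.42, 12.61 and 12.44 with vehicle, a change of -0.72 (0.00267).

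Of 37 genes of amino acid breakdown and the urea cycle 1 rose (2.7%, close to the 1.75% of all genes called). Of 18 genes of gluconeogenesis and fasting 1 rose and 1 fell (11.1% called, against the same 1.75%). Alanine aminotransferase (Gpt), whose protein in blood is read as a sign of liver injury, had between 9.48 and 9.90 at 1000 mg/kg, against 8.30 to 9.16 with a median of 8.36 with vehicle, and rose by 1.00 (adjusted p 0.0253). It was the rise in both lists, and it passed in 4 of the 9 fits that left out 1 array. Pyruvate carboxylase (Pc), the entry step of gluconeogenesis, fell by 0.43 (0.0171), and Pck1, the step after it, stood at -0.41 without passing. In heme and iron handling Uros and Blvrb rose by 0.53 (0.0166) and 0.44 (0.00758). With the fall of Hmox1 that list of 15 genes held 3 calls (20%, against 1.75% of all genes). Of these calls 1 was left without array C of the 1000 mg/kg group. Of 23 acute phase and plasma proteins, orosomucoid (Orm1) alone passed (4.35%, against 1.75% of all genes), at 0.72 (0.0393). Orm1 passed in 3 of the 9 fits that left out 1 array.

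Of 33 mitosis genes tested 3 fell at 1000 mg/kg (9.09%, against 0.538% of all genes), and 32 had a negative change, with a median of -0.62. The 3 were Cdk1, the kinase that drives entry into mitosis, Cdkn3, a phosphatase that acts on cyclin-dependent kinases, and Ccna2, cyclin A2. The groups did not overlap in 19 of the 33, against 1.84% of all genes tested in that direction. Cdk1 had 4.06, 4.16, 3.77 and 4.51 at 1000 mg/kg, against 5.97, 6.27, 6.42, 5.86 and 6.00 with vehicle. The change of -1.98 ± 0.36 (SE) had an adjusted p of 0.00505, and the groups lay more than 1 log2 unit apart. Cdkn3 had 3.72, 3.98, 4.30 and 3.90 at 1000 mg/kg, against 5.69, 6.65, 6.80, 5.03 and 6.51 with vehicle, a change of -2.16 (0.0307). Ccna2 had 2.57, 2.67, 2.71 and 2.95 at 1000 mg/kg, against 4.29, 4.38, 5.00, 4.29 and 4.46 with vehicle, a change of -1.76 (0.0448), which passed in none of the 9 fits that left out 1 array of these groups.

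These are dim probe sets. The 1000 mg/kg mean lay under the filter value of 4.69 in 20 of the 33 mitosis genes, Cdk1, Cdkn3 and Ccna2 among them, and in 15 of these the vehicle mean lay above it. Such genes entered the test through arrays where they were higher, so the counts over this list describe it and do not test it, and the size of a fall that ends near the bottom of the scale is uncertain. As a description of the same genes, their mean was 4.80, 4.84, 4.86 and 4.86 on the treated arrays, against 5.38, 5.42, 5.57, 5.68 and 5.74 on the vehicle arrays.

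In these genes a single liver at 500 mg/kg stood apart. Array R of that group had a list mean of 6.65, where the other 3 arrays of the group lay between 5.12 and 5.31, and it was the highest of all 25 PPH liver arrays in 32 of the 33 genes. It had 7.71 for Cdk1, 7.51 for Cdkn3 and 6.52 for Ccna2. With that array left out of the fit, 8 mitosis genes passed in place of 3. This setting was chosen after seeing the data, because of these same genes. It leaves the changes against vehicle as they were and lowers the spread they are tested against. The larger count follows from that choice and is no further support for the falls. They were Cdk1 (adjusted p 0.000142), Ccna2 (0.00589), Cdkn3 (0.00874), Ccnb2 (0.0118), Ube2c (0.0162), Prc1 (0.0285), Mki67 (0.032) and Kif22 (0.0476). In the other direction, 1 mitosis gene passed without array A, B or C of the 1000 mg/kg group, or without array W or Z of the vehicle group.

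The promoters of Cdk1 and Cdkn3 are shown because both hold several CCAAT boxes, a pentamer common in promoters of mitosis genes, given in capitals as CCAAT or, on the other strand, ATTGG. In Cdk1 they began 210, 81 and 49 bases before the start, and in Cdkn3 130, 72 and 29 bases before it (RefSeq, GRCr8).
Cdk1, chr20:19265043-19265342, plus strand: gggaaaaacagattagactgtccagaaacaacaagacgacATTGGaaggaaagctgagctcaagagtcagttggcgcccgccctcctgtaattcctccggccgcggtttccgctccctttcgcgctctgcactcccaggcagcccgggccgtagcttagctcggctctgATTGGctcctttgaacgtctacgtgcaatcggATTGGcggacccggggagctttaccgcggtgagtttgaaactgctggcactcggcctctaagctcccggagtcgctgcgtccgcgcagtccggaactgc
Cdkn3, chr15:22502136-22502435, plus strand: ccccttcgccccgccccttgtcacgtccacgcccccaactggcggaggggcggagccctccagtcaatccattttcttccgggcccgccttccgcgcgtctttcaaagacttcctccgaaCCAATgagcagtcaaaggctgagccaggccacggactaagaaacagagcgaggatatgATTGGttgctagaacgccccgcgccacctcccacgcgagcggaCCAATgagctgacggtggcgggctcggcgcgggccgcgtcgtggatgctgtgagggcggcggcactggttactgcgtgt
At least 1 CCAAT was held by 25 (86.2%) of 29 mitosis genes with a promoter in RefSeq, against 37.5% of all promoters and 37.9% of those of genes tested. As above, this describes letters and not binding.

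Genes that act before mitosis gave 1 call. Of 25 genes of DNA replication and entry into S phase, 1 fell (4%, against 0.538% of all genes) and the median was -0.04. The one was cyclin D1 (Ccnd1), which carries growth signals into the cell cycle: it had 8.04, 7.74, 8.31 and 7.95 at 1000 mg/kg, against 9.92, 10.16, 8.91, 9.39 and 9.76 with vehicle, a change of -1.62 ± 0.25 (SE, adjusted p 0.00151). Its 2 other probe sets changed by -1.34 and -1.44. The replication genes Mcm2 (-0.04), Pcna (0.03) and Rrm1 (0.19) did not pass. Of 14 targets of p53, 0 passed, against 1.75% of all genes, with Cdkn1a at 0.15 and Mdm2 at 0.17.

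**Figure D4:**
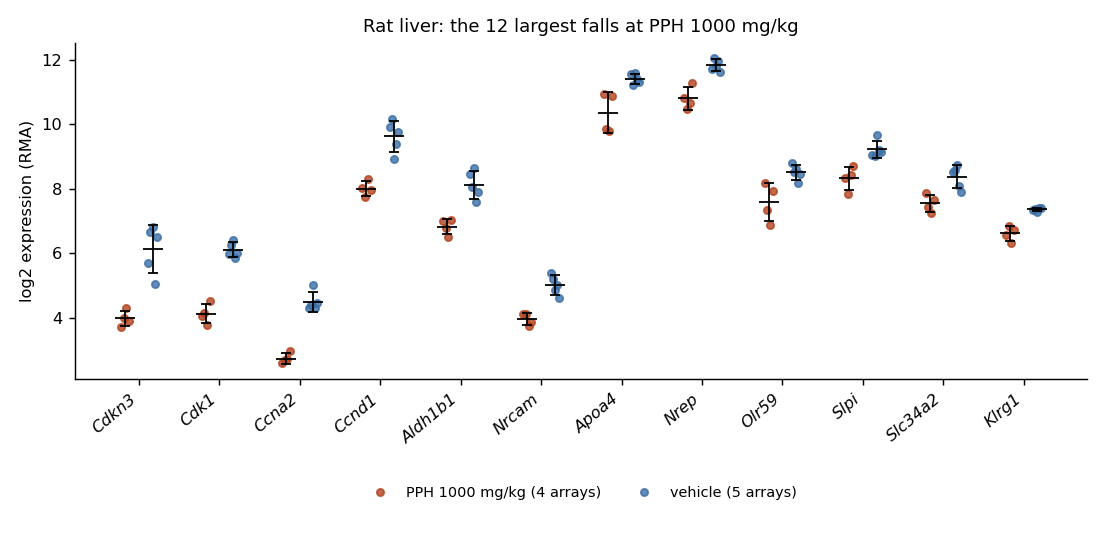
Log2 expression (vertical axis) of the 12 genes with the largest falls among called genes, for the 4 PPH 1000 mg/kg arrays (left of each pair) and the 5 vehicle arrays (right), with the mean and SD as black bars. The groups do not overlap except in Olr59, and the treated means of Cdkn3, Cdk1, Ccna2 and Nrcam, between 2.73 and 4.13, lie under the filter value of 4.69.

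Among the other large falls, the regeneration-linked gene Nrep had 10.82, 10.47, 10.66 and 11.30 at 1000 mg/kg, against 11.73, 12.07, 11.83, 11.98 and 11.63 with vehicle, a change of -1.03 (adjusted p 0.000117). The adhesion molecule Nrcam fell by 1.06 (0.00339) at a low level. The secreted protease inhibitor Slpi fell by 0.90 (0.0259), the phosphate carrier Slc34a2 by 0.82 (0.0356) and the lymphocyte receptor Klrg1 by 0.75 (0.0253). Among other rises, the choline transporter family member Slc44a4 rose by 1.01 (0.00692). Its arrays lay between 4.56 and 5.49 with vehicle and between 5.73 and 6.32 at 1000 mg/kg. Those at 1 mg/kg had 5.27 to 5.88 and those at 500 mg/kg 5.41 to 5.94, overlapping both groups.

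Several lists gave no call with limma. With 1.75% of all genes called, lists this short would be expected to hold few calls or none. None of 26 genes of the response to unfolded proteins and amino acid shortage passed, with a median of 0.03, nor did any of 16 clock genes (-0.06), 12 pericentral (-0.02) or 15 periportal (-0.03) hepatocyte genes. Markers of other liver cells did not pass either: 0 of 11 for Kupffer cells and macrophages, 0 of 10 for endothelium, 0 of 12 for stellate cells and fibroblasts and 0 of 13 for lymphocytes. The macrophage list had 10 of 11 negative changes and a median of -0.20. Its mean level lay between 8.74 and 8.97 at 1000 mg/kg and between 8.86 and 9.19 with vehicle, and its part in other results was not tested. Of the 11342 genes, 1638 had an unadjusted p under 0.05.

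Lower doses of PPH gave few calls against the same vehicle arrays. The number of called genes was 0 at 1 mg/kg, 1 at 10 mg/kg, 0 at 100 mg/kg and 10 at 500 mg/kg (0.0882%) with limma, and between 1140 and 1365 genes had an unadjusted p under 0.05 at these doses. The 1 gene at 10 mg/kg was Gstt3, with a difference of 1.04 (adjusted p 0.00879). At 500 mg/kg all 10 were higher, led by Gstt3 (1.28, 0.00033) and Nqo1 (0.91, 0.00203). Among genes higher at 1000 mg/kg all but 3 had a 500 mg/kg mean above the vehicle mean, and of the 61 lower genes 56 had one below it, but all these comparisons share the 5 vehicle arrays.

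Median changes over the genes higher at 1000 mg/kg were 0.19, 0.21, 0.20, 0.28 and 0.45 at 1, 10, 100, 500 and 1000 mg/kg. Over the genes lower at 1000 mg/kg they were -0.11, -0.11, -0.11, -0.17 and -0.46. Both sets were chosen by their difference at 1000 mg/kg from the same 5 vehicle arrays. That choice alone can move the medians at every dose away from 0, so they do not test an effect of lower doses. Glutathione transferases had list means between 9.60 and 9.74 with vehicle, between 9.82 and 9.94 at 1 mg/kg, between 9.81 and 9.93 at 10 mg/kg, between 9.69 and 9.93 at 100 mg/kg, between 9.91 and 9.99 at 500 mg/kg and between 9.99 and 10.14 at 1000 mg/kg. For this list the vehicle arrays lay under all arrays of every dose but 100 mg/kg, whose lowest array overlapped them. Cholesterol synthesis had a median change of 0.33 at 500 mg/kg and 0.68 at 1000 mg/kg, and mitosis 0.06 and -0.62. The mitosis value at 500 mg/kg includes array R, with a list mean of 6.65, while the other 3 arrays of that dose, between 5.12 and 5.31, lay below every vehicle array. Sult2a6 stood at -0.62 at 500 mg/kg and 1.50 at 1000 mg/kg.

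**Figure D5:**
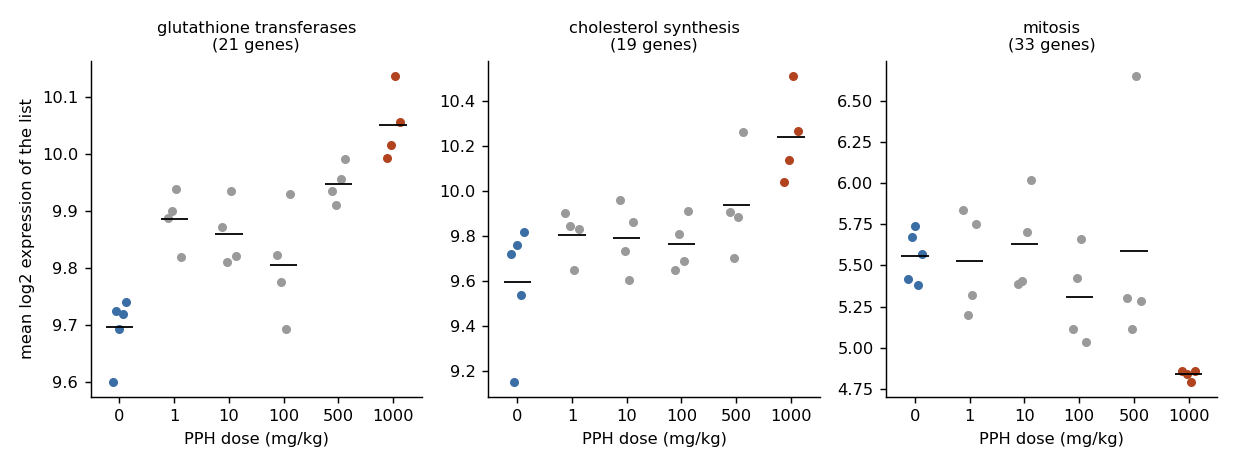
Mean log2 expression (vertical axis) of the glutathione transferases, the cholesterol synthesis genes and the mitosis genes on each PPH liver array, by dose in mg/kg (horizontal axis), with the mean of each group as a line. At 1000 mg/kg the arrays lie above every vehicle array in the first pair of panels and below every vehicle array in the mitosis panel, where array R of the 500 mg/kg group stands apart at 6.65.

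Tested directly, 1000 mg/kg and 500 mg/kg differed in 1 of 11342 genes (0.00882%), and 812 had an unadjusted p under 0.05. Abcc3 was higher at 1000 mg/kg by 1.22 ± 0.20 (SE, adjusted p 0.0292). For Gstt3 the difference was 0.61, with a 95% interval of 0.27 to 0.94, and for Gsta3 it was 1.07, with an interval of 0.36 to 1.77. Neither passed after adjustment. Without array D of the 1000 mg/kg group 17 genes passed, without array A of it 3, and without array S of the 500 mg/kg group 2. Without array B or C of the 1000 mg/kg group or array R of the 500 mg/kg group, limma called 0 genes.

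Kidneys of the same dose groups gave the contrast for tissue, with 4 arrays at 1000 mg/kg and 5 with vehicle. The change differed between liver and kidney in 31 of 11656 genes (0.266%), in 20 (0.172%) with the liver change above the kidney change and in 11 (0.0944%) with it below. With the array number as a block, since the same number marks liver and kidney at the same dose, 77 genes passed. Gstt3 changed by 1.88 in liver and 0.20 in kidney (difference 1.68, adjusted p 1.1e-05), Adh7 by 1.50 and -0.11 (1.60, 0.00296) and Abcc3 by 1.77 and 0.20 (1.58, 0.0249). In the opposite direction Gstm1 changed by 0.19 in liver and 1.21 in kidney (-1.02, 0.0221). Ccnd1 changed by -1.62 in liver and -0.15 in kidney (-1.47, 0.042). Single arrays moved the count. It was 5 without kidney array C, 6 without liver array C, 12 without liver array D and 10 without kidney array A or kidney array E, all of the 1000 mg/kg groups. Among vehicle arrays it was 7 without kidney array W or Y, 13 without liver or kidney array V, 15 without liver array Y and 17 without liver array W or kidney array X. It reached 45 without liver array Z.

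The 21 glutathione transferases had a median change of 0.19 in liver and 0.20 in kidney. In kidney 5 of them rose, against 0.54% of all genes, and 0 fell, so the family's rise was not particular to liver. The difference between tissues passed for 3 of them, Gstm1, Gstt3 and Gstz1. The 19 cholesterol synthesis genes had a median change of 0.68 in liver and -0.12 in kidney, where none passed, and the difference between tissues passed for Acat2 (1.14 and -0.14, adjusted p 0.042). The 33 mitosis genes had a median of -0.62 in liver and -1.01 in kidney, and 24 of them fell in kidney, where 158 genes (1.36%) passed in all, 95 of them lower (0.815%). Cdk1 changed by -1.98 in liver and -1.61 in kidney, and the tissue difference passed for 1 mitosis gene.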

How the data were processed

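Liver and kidney RNA was hybridised to Affymetrix Rat Genome 230 2.0 arrays. The deposited values are log2 expression values for 31099 probe sets, made by the authors with RMA per the submitters' processing notes, whose version is not given in the sources used here. Only their log2 values were used, so signal over background could not be checked, and the number of arrays limits the precision.

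Probe sets were named from the platform annotation, with symbols updated through RefSeq: 20832 had 1 symbol, 436 had several and were left out, and 9831 were unnamed here. For each of 14218 genes 1 probe set was kept, that with the highest liver mean. Genes above 4.69, the 40th percentile of liver values, on at least 3 arrays were tested with limma 3.58.1 (R 4.3.3, statmod 1.5.0; lmFit, eBayes) on 25 PPH liver arrays in 6 groups, with Benjamini-Hochberg adjustment over all genes tested and a threshold of 0.05. The difference between tissues was tested likewise on 18 liver and kidney arrays. In simulated data for 1000 mg/kg against vehicle (11342 genes, 200 changed), noise was drawn independently for each gene and array. The fit recovered 65% of changes of 0.5 and 95% of changes of 1 on the log2 scale, and 6.43% of its calls were false. Effects shared by many genes of an array were not simulated, so these shares may not hold for the real calls.

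The members and the 37 gene lists were chosen with earlier results of these data known. The text names the 12 largest rises and falls among called genes, the first gene of each list with up to 8 called members, the 5 largest called differences per direction in the other comparisons, and called cell type markers. Values of other listed genes that did not pass are given beside them and were chosen after they were seen. Liver and kidney arrays with the same number were taken as the same rat; the deviations of the 8 pairs correlated between 0.0784 and 0.238. Alternatives were another filter, probe set summary, normalization, array weights, sample choice, RNA integrity covariate, a block on the rat and leaving out each array.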

Additional observations from a re-analysis of the deposited data

Results flagged for a closer look

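Among 96 named genes in 192 groups, 14 groups (7.29%) had 1 array far from the others of its group, judged by the gap to the nearest array over the range of the group, where chance gives about 1 in 20. Of these, 5 were at 1000 mg/kg and 9 with vehicle.

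At 1000 mg/kg array C stood highest for Mvk, at 9.42 where the next highest was 9.05 (gap ratio 0.867), and for Idi1, at 12.17 against 11.65 to 11.71 (0.879). It stood lowest for Igf1, at 12.93 with the others at 12.97 (0.882). Array D was lowest for Slc27a5, at 12.59 where the others lay between 12.79 and 12.81 (0.911), and array B for Tkt, at 10.54 where they lay between 10.75 and 10.78 (0.875).

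With vehicle, array W stood lowest for Acat2 (8.19, gap ratio 0.719), Dhcr7 (9.83, 0.740) and Aldh1l2 (10.10, 0.875). Array X stood highest for Ccna2 (5.00, 0.759), Slpi (9.69, 0.738), Hmox1 (8.78, 0.826) and Apoa1 (13.58, 0.759). Array V was lowest for Cidea (6.52, 0.788) and array Y highest for Serpina6 (12.61, 0.858).

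The change at 1000 mg/kg differed between liver and kidney by the limma test of the difference itself. The liver change exceeded the kidney change for the prostaglandin synthase Ptgs2 by 1.87 (adjusted p 0.0311), which changed by 0.08 in liver and -1.79 in kidney. It exceeded it for Gstt3 by 1.68, Adh7 by 1.60, Sult2a6 by 1.59 (0.048) and Abcc3 by 1.58. It lay below it for Ccnd1 (-1.47), Klrg1 (-1.03), Gstm1 (-1.02), Nrcam (-1.01) and the methyltransferase Bhmt (-0.96, adjusted p 0.0457), the last with -0.01 in liver and 0.96 in kidney.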

How the results depend on the processing

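Of 71 named genes called at 1000 mg/kg, 32 passed in all 9 fits that left out 1 array, 23 passed under all alternatives run, and 0 changed direction. Against vehicle, 199 genes passed, 61 with only the arrays of both groups, 348 with all liver arrays and 65 to 183 with 1 array left out. Further quantile normalization gave 54.1% rises among calls in place of 69.3%. Against 500 mg/kg, 1 gene passed, 2 with the mean of all probe sets, 15 with array weights, 32 with all liver arrays and 0 to 17 with 1 array left out. Between liver and kidney, 31 passed, 20 without a filter and 5 to 45 with 1 array left out. With the rat as a replicate block 77 passed (50 higher and 27 lower in liver). The cause of these differences was not tested. Without array R of the 500 mg/kg group, chosen after seeing the data, 193 genes passed against vehicle, and Abcc2 (adjusted p 0.0527), Papss2 (0.0567) and Cyp27a1 (0.0516) no longer did. Changes of 0.5 or less may be missed at this number of arrays, and levels near the bottom of the scale have no detection call.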

Other observations

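Gene families found by symbol, after their values were seen, held further small shifts at 1000 mg/kg. Of 36 proteasome subunits, which break down tagged proteins, 34 had a positive change, against 57.9% of all genes. Their median was 0.18 beside 0.03 for all genes. The 4 that passed were Psmd8 (0.31, limma adjusted p 0.0208), Psmd3 (0.30, 0.0454), Psmc3 (0.29, 0.0107) and Psma6 (0.23, 0.0334). Of 42 cytosolic ribosomal protein genes 12 had a positive change, with a median of -0.02 and 0 calls. Of 48 cytochrome P450 genes 4 rose and 0 fell, and of 8 glucuronosyltransferases 3 rose. Of all genes tested 1.22% rose and 0.538% fell.

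Several called genes outside the lists were also chosen after their values were seen. Pirin (Pir), an iron-binding nuclear protein, rose by 0.91 (adjusted p 0.000387), with 7.91 at 1000 mg/kg and 7.00 with vehicle. The glycine transferase relative Glyatl2 rose by 0.86 (0.0001), the flavin monooxygenase Fmo5 by 0.75 (0.0244) and aldehyde oxidase Aox1 by 0.51 (0.00267). Alpha-fetoprotein (Afp), abundant in fetal liver, fell by 0.51 (0.0244), the collagen Col14a1 by 0.57 (0.00692) and the actin-binding peptide gene Tmsb4x by 0.46 (0.0015).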
